A study of Homo sapiens with 78 samples.

Results

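Spliceosomal small nuclear RNAs (snRNAs) were quantified in single cells of A375, a human melanoma line, and Jurkat (clone E6-1), a human T cell leukemia line. The 9 genes described here were 5 of the major spliceosome, RNU4-1 and RNU4-2 for U4 and RNU5A-1, RNU5B-1 and RNU5E-1 for U5, and 4 of the minor spliceosome, RNU11, RNU12, RNU4ATAC and RNU6ATAC. They were chosen by name, not by their values, out of 37315 genes with a count anywhere in the series. Together they held 14348.6 of 65408960 estimated counts, or 0.0219%, and the series held counts for a further 461 snRNA genes, most of them copies or pseudogenes.

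Each sample was 1 FACS sorted well, with total RNA converted to stranded cDNA by kit #634413 or kit #634444. There were 21 A375 wells and 18 Jurkat wells for each kit, 78 in all, with no drug or genetic treatment. A375 cells were grown in DMEM, labeled with an anti-CD47 antibody and sorted into 1× PBS. Jurkat cells were grown in RPMI medium, labeled with an anti-CD81 antibody and sorted into lysis solution. Line, medium, antibody and sort buffer therefore cannot be told apart in any difference between the lines. Each line was 1 culture of cells as far as the sources say, so that the spread is that between single cells.

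The spliceosome removes introns from precursor messenger RNA. In the major spliceosome, U4 holds U6 in an inactive pairing and joins U5 in the tri-snRNP, and U5 aligns the exon ends for joining. The minor spliceosome recognizes a rare intron class through U11 and U12, and U4atac and U6atac take the place of U4 and U6 while U5 is shared. All of these RNAs except U6 and U6atac are transcribed by RNA polymerase II and carry a ring of Sm proteins, whereas U6 and U6atac end in a run of uridines that binds LSm proteins.

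The sequences of the U4 genes are shown because the results turn on members that differ by a few bases. They are given 5′ to 3′ as DNA letters from the GENCODE release 44 transcripts, whose lengths equal those in the deposited tables. Capitals mark the 4 positions, counted from 1 at the 5′ end, at which RNU4-1 and RNU4-2 differ, namely C37T, G88A, C99A and C113T with the RNU4-1 base first.
RNU4-1: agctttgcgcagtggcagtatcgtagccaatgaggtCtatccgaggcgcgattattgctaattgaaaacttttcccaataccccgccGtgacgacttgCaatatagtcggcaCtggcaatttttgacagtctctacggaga
RNU4-2: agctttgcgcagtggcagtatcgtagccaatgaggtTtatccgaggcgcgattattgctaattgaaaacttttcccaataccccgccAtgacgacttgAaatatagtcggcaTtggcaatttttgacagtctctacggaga
The 2 U4 sequences were identical at 137 of 141 positions, or 97.2%.

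The minor spliceosome RNAs are shown with the motif AATTTTT in capitals, a common form of the site at which the Sm ring assembles.
RNU11: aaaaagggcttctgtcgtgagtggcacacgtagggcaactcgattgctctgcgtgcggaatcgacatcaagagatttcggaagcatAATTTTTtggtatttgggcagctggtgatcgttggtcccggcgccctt
RNU12: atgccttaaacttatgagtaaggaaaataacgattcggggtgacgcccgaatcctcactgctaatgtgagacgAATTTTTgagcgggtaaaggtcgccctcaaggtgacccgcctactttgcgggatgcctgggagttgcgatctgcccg
RNU4ATAC: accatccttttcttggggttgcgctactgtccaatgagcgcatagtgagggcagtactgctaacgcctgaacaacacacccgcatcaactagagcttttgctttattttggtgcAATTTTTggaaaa
RNU6ATAC: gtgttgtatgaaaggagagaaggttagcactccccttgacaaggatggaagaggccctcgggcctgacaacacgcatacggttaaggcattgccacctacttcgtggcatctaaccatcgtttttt
The motif, searched on both strands, was found on the RNA strand of 8 of the 9 genes and not in RNU6ATAC. Among 1428 targets of 116 to 150 bases it was found on the RNA strand of 6.09% and on the complement of 2.17%. The U4 genes hold it from position 118.

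On GRCh38, the RNU4-1 gene (ENSG00000200795) lies at chr12:120293097-120293237 on the minus strand, beside the RNU4-2 gene (ENSG00000202538) at chr12:120291763-120291903 on the same strand. The U5 genes are RNU5A-1 (ENSG00000199568), RNU5B-1 (ENSG00000200156) and RNU5E-1 (ENSG00000199347). RNU5E-1 overlaps an exon of the long noncoding RNA ENSG00000285646 on the same strand, and RNU5A-1 lies in an intron of PARP16 on the opposite strand. RNU11 (ENSG00000274978) lies at chr1:28648600-28648733 on the plus strand and RNU12 (ENSG00000276027) at chr22:42615244-42615393 on the plus strand. Each overlaps an exon of a long noncoding RNA of the same strand, and RNU12 also lies in an intron of ENSG00000289517 on the opposite strand. RNU4ATAC (ENSG00000264229) lies at chr2:121530881-121531007 on the plus strand, in introns of CLASP1 on the opposite strand and of CLASP1-AS1 on the same strand, and RNU6ATAC (ENSG00000221676) at chr9:134164439-134164564 on the minus strand, with no other annotated gene over it.

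How far each gene can be told from its copies differed, as measured by the runs of 31 bases that occur in no other target of the tables. RNU4ATAC was the clearest, with all 97 of its runs unique. RNU4-1 had 53 unique runs of 111 and RNU4-2 had 67 of 111, with 26 runs common to both. The U5 genes had 52 of 86 (RNU5A-1), 53 of 86 (RNU5B-1) and 55 of 90 (RNU5E-1) unique runs, and RNU5E-1 shared 35 runs with RNU5D-1, another U5 gene. No target of ENSG00000285646, the long noncoding RNA over RNU5E-1, shared a run with it. Reads of that RNA within the overlap could therefore be counted as RNU5E-1. RNU6ATAC had 15 of 96, but the 14 targets that share its runs, all pseudogenes, held at most 1 count each over the series. RNU11 had only 3 unique runs of 104, because 101 occur in the overlapping long noncoding RNA ENSG00000270103, and RNU12 had 0 of 120, because all of them occur in ENSG00000270022. Reads within the shared stretches were thus divided by the estimation and not by sequence. Values for U11 and U12 are therefore also given for both targets together. The ENSG00000270022 target has 664 bases against 150 for RNU12, so its reads can also come from outside U12.

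Totals ranged from 909 to 2567265 estimated counts per well, with medians of 758810 and 658192 in A375 and 926941 and 766736 in Jurkat for kit #634413 and kit #634444. The marker lists matched the labels. Summed T cell markers exceeded summed A375 markers in all 36 Jurkat wells, the reverse held in 36 of 42 A375 wells, and the other 6 A375 wells held no count of either list. Each list held 14 genes. Of those with enough counts, 12 of 12 and 13 of 13 T cell genes were lower in A375, where 10.7% and 17.1% of all tested genes were. Of the A375 genes, 7 of 8 and 9 of 9 were higher, where 12.4% and 14.8% of all tested genes were. Within A375 alone 1 T cell gene met the count filter, and within Jurkat alone 0 A375 genes did. The direction of these calls was thus largely set by the filter. There were 6 A375 wells with 909 to 2373 counts, 2 with kit #634413 and 4 with kit #634444, and they held 0 counts of the 9 genes, with scaling factors (TMM, which compares a well's typical gene with that of other wells) of 24.5 to 51.5 times the median. Another 5 A375 wells, 4 with kit #634413 and 1 with kit #634444, had 80958 to 278553 counts, an rDNA repeat share of 44.5% to 58.8% and a scaling factor of 0.262 to 0.572 times the median. The other 31 A375 wells had rDNA shares of 5.98% to 25.02%. These 11 wells stood apart, and results over the 31 wells kept with all Jurkat wells are given beside the main ones. In the 5 wells the 9 snRNAs summed to 251 to 801 CPM, the counts of a gene scaled to the same total in every well, against 30.6 to 298 CPM in the 31 wells. Whether the same state of a well gave the high rDNA share, the low scaling factor and the high snRNA level was not tested.

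RNU4-2, a U4 gene, was at 64.6 to 277 CPM in Jurkat and at 12.4 CPM or less in A375. In Jurkat its lowest, median and highest values were 64.6, 147 and 277 CPM with kit #634413 and 88.3, 174 and 241 CPM with kit #634444 (means 152 ± 47.7 and 171 ± 46.3, SD, n = 18 each). In A375 they were 0, 0 and 6.51 CPM and 0, 0.779 and 12.4 CPM (means 1.54 ± 2.25 and 2.12 ± 3.11, SD, n = 21 each). The ranges of the lines did not overlap with either kit. RNU4-2 had 1 count or more in all 36 Jurkat wells, but in 9 and 12 of 21 A375 wells. Among the A375 wells kept it had 1 count or more in 6 of 15 and 11 of 16. At the median A375 total, a count of 0 allows up to 3.95 CPM with kit #634413 and 4.56 CPM with kit #634444, covering counting error only. The log2 fold change of A375 over Jurkat was -6.38 (SE 0.71, edgeR adjusted p = 2.96e-12) with kit #634413 and -6.14 (SE 0.49, edgeR adjusted p = 3.16e-17) with kit #634444. It was -6.86 and -6.18 without the 11 wells, and the call held in every alternative run. RNU4-2 met the count filter of the test through Jurkat, with 5 counts or more in 18 of 18 wells with each kit. In A375 3 and 1 of 21 wells had 5 counts or more.

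RNU4-1, the other U4 gene, was present in both lines. In Jurkat its lowest, median and highest values were 76.9, 136 and 182 CPM with kit #634413 and 63.2, 117 and 190 CPM with kit #634444. In A375 they were 0, 22.4 and 280 CPM and 0, 24.8 and 371 CPM. Most A375 wells therefore lay below Jurkat, 16 of 21 with kit #634413 and 18 of 21 with kit #634444 below every Jurkat well. These include the 2 and 4 wells that held 0 counts of the 9 genes. The highest A375 value with each kit, both in wells that stood apart, lay above every Jurkat well. In the wells kept, 14 of 15 and 14 of 16 A375 wells lay below every Jurkat well. Over all wells RNU4-1 did not pass the test, with log2 fold changes of -0.22 (SE 0.53, edgeR adjusted p = 0.829) and -1.09 (SE 0.47, edgeR adjusted p = 0.0645), while DESeq2 called the latter (-1.25, DESeq2 adjusted p = 0.0090). With the 11 wells left out it was called lower in A375 with both kits, at -2.27 (SE 0.37, edgeR adjusted p = 3.42e-06) and -1.62 (SE 0.31, edgeR adjusted p = 3.00e-05) on the log2 scale. In the wells kept, its mean was 27.3 ± 20.4 CPM (SD, n = 15) and 35.7 ± 29.1 CPM (SD, n = 16) in A375.

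**Figure D1:**
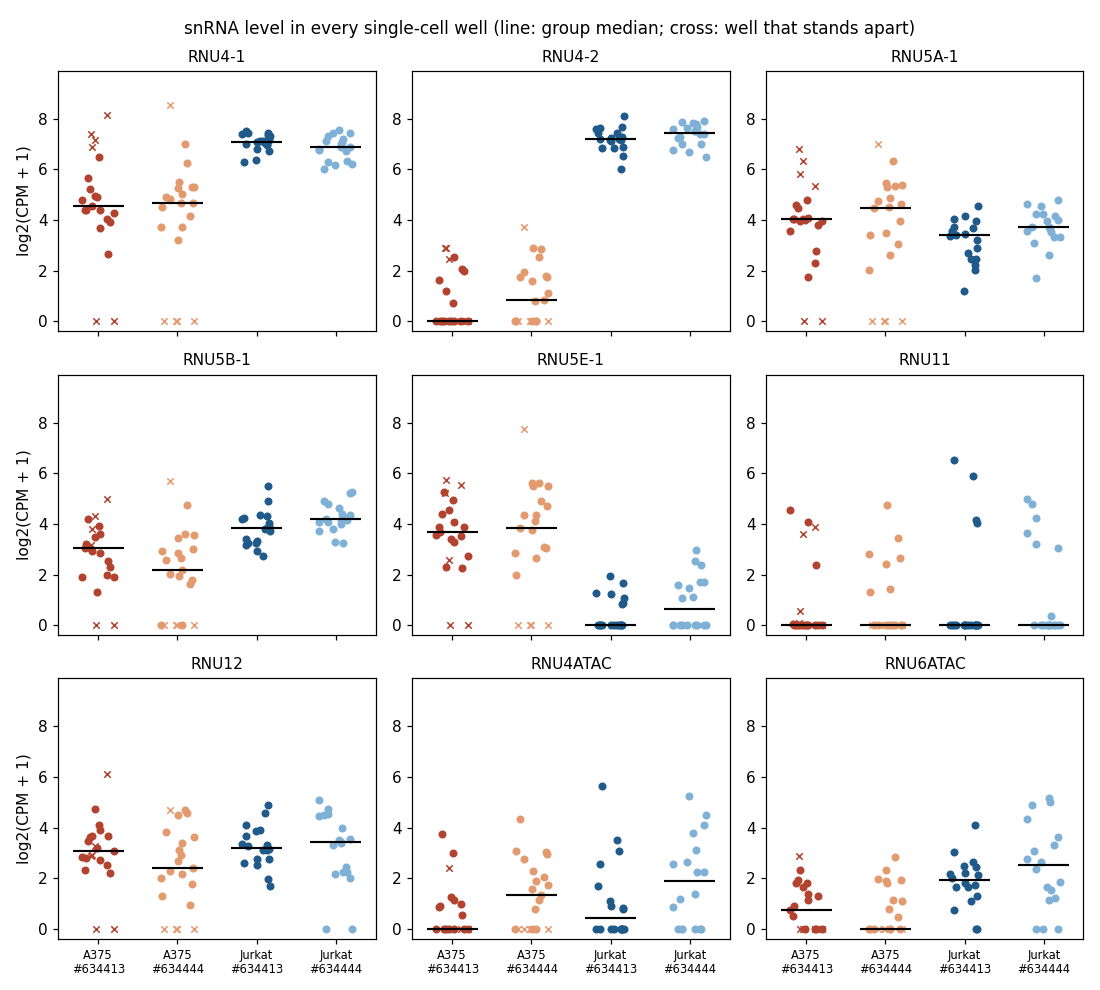
Level of each of the 9 snRNA genes in the 78 wells, as log2(CPM + 1) on the vertical axis, by line and kit on the horizontal axis; each point is a well, each bar the group median, and crosses are the 11 A375 wells that stood apart. RNU4-2 lies between 64.6 and 277 CPM in all 36 Jurkat wells and at 12.4 CPM or less in A375, and RNU5E-1 shows the opposite pattern.

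Within a well, the make-up of U4 followed the line. RNU4-1 held more counts than RNU4-2 in all 36 A375 wells with any U4 count, whereas RNU4-2 held more in 12 of 18 Jurkat wells with kit #634413 and 17 of 18 with kit #634444. Among wells with at least 10 U4 counts, RNU4-2 made up 5.32% ± 9.61 (SD, n = 19) and 5.29% ± 3.62 (SD, n = 14) of U4 counts in A375. The same share was 52.1% ± 8.38 (SD, n = 18) and 58.9% ± 5.59 (SD, n = 18) in Jurkat. A ratio of 2 genes of equal length within a well does not change with the depth or the scaling of that well. The highest A375 share was 36.8% and the lowest Jurkat share 34.3%, both with kit #634413, so that 1 A375 well and 1 Jurkat well crossed there. With kit #634444 the highest A375 share was 12.8% and the lowest Jurkat share 49.2%. Without the wells that stood apart the A375 means were 5.94% and 5.45%.

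**Figure D2:**
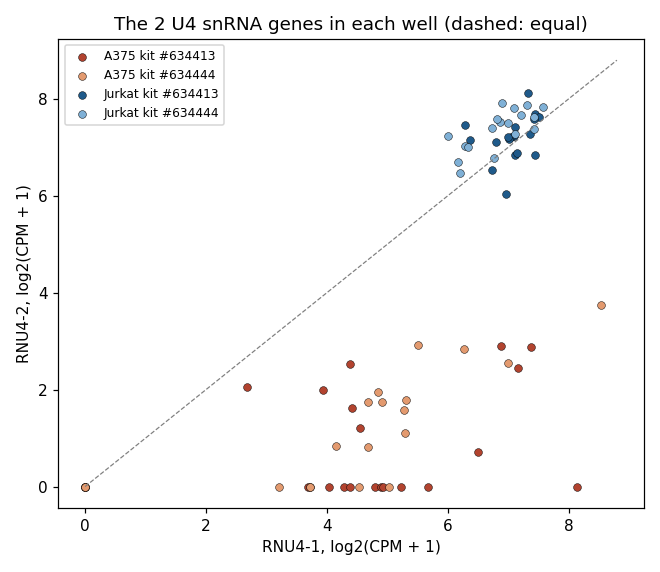
RNU4-2 against RNU4-1 in each of the 78 wells, both as log2(CPM + 1), colored by line and kit; the dashed line marks equal values. Jurkat wells lie along the dashed line, while no A375 well lies above it and RNU4-2 is at most 12.4 CPM in A375.

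RNU5E-1, a variant gene of U5, showed the opposite difference. In A375 its lowest, median and highest values were 0, 11.8 and 52.1 CPM with kit #634413 and 0, 13.5 and 215 CPM with kit #634444. In Jurkat they were 0, 0 and 2.85 CPM and 0, 0.560 and 6.78 CPM. It had 1 count or more in 6 and 9 of 18 Jurkat wells, and in 19 and 17 of 21 A375 wells. With kit #634413, 19 of 21 A375 wells were above every Jurkat well, and with kit #634444 14 of 21 were. RNU5E-1 met the count filter of the test through A375, with 5 counts or more in 16 and 12 of 21 wells. In Jurkat 0 and 1 of 18 wells had 5 counts or more. The log2 fold change was 5.27 (SE 1.02, edgeR adjusted p = 1.81e-05) and 4.46 (SE 0.80, edgeR adjusted p = 4.19e-06). It was 4.34 (SE 0.83) and 3.95 (SE 0.73) without the 11 wells, and in the wells kept the lines did not overlap with kit #634413. A U5 pseudogene target, RNU5E-6P, shares 12 runs of 31 bases with RNU5E-1 and held 708.9 counts. Its mean was 12.4 ± 15.5 and 11.9 ± 19.4 CPM in A375 (SD, n = 21 each) and 12.97 ± 15.7 and 12.4 ± 11.9 CPM in Jurkat (SD, n = 18 each). The counts of RNU5E-1 could also include reads of the overlapping long noncoding RNA ENSG00000285646.

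RNU5A-1 and RNU5B-1 are the other U5 genes of the 9, and their values overlapped between the lines. RNU5A-1 had medians of 15.3 and 21.1 CPM in A375 (range 0 to 112 and 0 to 127) and of 9.50 and 12.3 CPM in Jurkat (range 1.29 to 22.3 and 2.28 to 27.02). The ranges overlapped with both kits, with 6 and 7 of 21 A375 wells above every Jurkat well. RNU5A-1 was called higher in A375 with kit #634413 (log2 fold change 2.30, SE 0.75, edgeR adjusted p = 0.0172) but not with kit #634444 (1.21, SE 0.56, edgeR adjusted p = 0.0901). The first call was lost without the 11 wells (0.60, SE 0.64, edgeR adjusted p = 0.579), where the log2 fold change with kit #634444 was 1.06 (edgeR adjusted p = 0.0702). RNU5B-1 had medians of 7.17 and 3.47 CPM in A375 and of 13.1 and 17.1 CPM in Jurkat. It did not pass the test over all wells, with log2 fold changes of 0.01 (SE 0.85, edgeR adjusted p = 0.995) and -1.22 (SE 0.63, edgeR adjusted p = 0.137). Leaving out the 11 wells gave -1.06 (edgeR adjusted p = 0.277) with kit #634413 and a call of lower in A375 with kit #634444, at -1.51 (SE 0.55, edgeR adjusted p = 0.0281).

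The U5 genes thus made up different mixtures in the lines. RNU5D-1 and RNU5F-1, U5 genes outside the 9, were added to complete the family, and wells with at least 10 U5 counts were used. RNU5B-1 held 15.9% ± 8.11 (SD, n = 19) and 11.1% ± 7.40 (SD, n = 16) of U5 counts in A375, against 50.8% ± 17.6 (SD, n = 16) and 44.8% ± 12.6 (SD, n = 18) in Jurkat. RNU5E-1 held 30.9% ± 11.8 and 32.6% ± 10.8 in A375, and 2.87% ± 5.77 and 3.10% ± 4.23 in Jurkat. RNU5A-1 held 37.3% ± 14.5 and 38.2% ± 8.46 in A375 and 31.5% ± 17.8 and 32.9% ± 15.5 in Jurkat. In the wells kept, the A375 means were 17.1% and 10.95% for RNU5B-1, 33.1% and 31.1% for RNU5E-1, and 34.96% and 38.6% for RNU5A-1 (n = 15 each). RNU5D-1 held 8.11% to 14.4% and RNU5F-1 2.96% to 10.3% on average in the 4 groups. RNU5B-1 held more counts than RNU5A-1 in 1 and 0 of 21 A375 wells, and in 12 of 18 Jurkat wells with each kit.

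**Figure D3:**
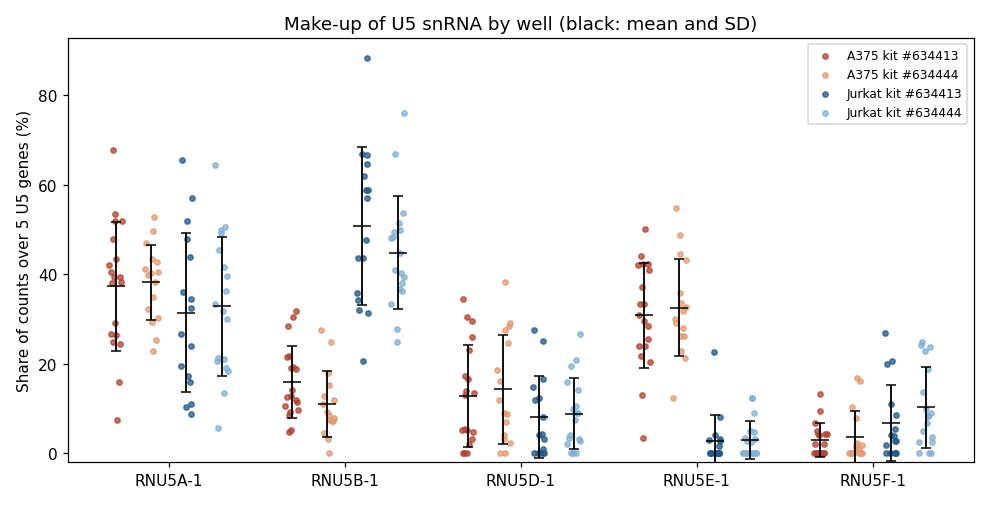
Share of each of 5 U5 genes in the U5 counts of a well, in percent on the vertical axis, for wells with at least 10 U5 counts, grouped by gene and colored by line and kit; black bars are the mean and SD. RNU5E-1 averages 30.9% and 32.6% in A375 and 2.87% and 3.10% in Jurkat, and RNU5B-1 averages 11.1% to 15.9% in A375 and 44.8% to 50.8% in Jurkat.

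The mean sum of the U4 genes was higher in Jurkat and that of the U5 genes higher in A375, and neither sum was tested. The 2 U4 genes summed to means of 54.6 ± 70.7 and 46.97 ± 82.8 CPM in A375 (SD, n = 21 each), with medians of 24.6 and 26.9, and to 288 ± 65.6 and 291 ± 78.02 CPM in Jurkat (SD, n = 18 each). The 3 U5 genes summed to 49.2 ± 42.3 and 59.9 ± 85.96 CPM in A375, and to 25.1 ± 9.81 and 34.6 ± 10.45 CPM in Jurkat, with medians of 35.3 and 39.5 in A375 and 23.7 and 34.2 in Jurkat. In the A375 wells kept, the U4 genes summed to 28.3 ± 20.1 CPM (SD, n = 15) and 37.7 ± 30.7 CPM (SD, n = 16), and the U5 genes to 35.8 ± 17.4 and 54.03 ± 38.3 CPM. For wells with at least 20 counts over the 9 genes, the 3 U5 genes were set against the 5 major genes of the 9. They held 53.998% and 57.2% of the counts of these 5 genes in A375, but 8.02% and 11.2% in Jurkat. U1, U2 and U6 were not part of that sum. In the A375 wells kept the share was 57.2% and 57.7%.

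Among the minor spliceosome genes, RNU12, whose RNA recognizes the branch site, was the most regularly detected. It had 1 count or more in 19 and 17 of 21 A375 wells and in 18 and 16 of 18 Jurkat wells. Its lowest, median and highest values were 0, 7.37 and 68.2 CPM and 0, 4.34 and 25.3 CPM in A375, and 2.23, 8.25 and 28.4 CPM and 0, 9.67 and 33.0 CPM in Jurkat. The lines overlapped over nearly their whole ranges. The log2 fold change was 0.99 (SE 0.81, edgeR adjusted p = 0.431) with kit #634413 and -0.25 (SE 0.66, edgeR adjusted p = 0.819) with kit #634444. The overlapping long noncoding RNA held reads mainly in Jurkat, 13.2 ± 17.2 CPM with kit #634444 against 0.387 ± 0.935 CPM in A375. With both targets together U12 had means of 11.35 ± 14.2 and 8.41 ± 8.54 CPM in A375 and 15.4 ± 18.1 and 24.7 ± 16.8 CPM in Jurkat, and log2 fold changes of 0.45 (edgeR adjusted p = 0.757) and -1.28 (SE 0.57, edgeR adjusted p = 0.0794). Such sums can include reads of the long noncoding RNA from outside U12.

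RNU11, whose RNA recognizes the start of minor introns, had few assigned reads. It had 1 count or more in 5 and 5 of 21 A375 wells and in 4 and 6 of 18 Jurkat wells, with highest values of 22.6 and 25.5 CPM in A375 and of 91.8 and 30.7 CPM in Jurkat. The overlapping target took most of the reads, so that U11 over both targets had 1 count or more in 19 and 16 A375 wells and in 18 and 17 Jurkat wells. Its means were then 27.9 ± 32.5 and 16.3 ± 22.4 CPM in A375 and 27.4 ± 23.1 and 13.1 ± 8.46 CPM in Jurkat. RNU11 alone had too few counts for the line tests, and U11 over both targets had log2 fold changes of 1.17 (SE 0.65, edgeR adjusted p = 0.208) and 0.61 (SE 0.62, edgeR adjusted p = 0.487).

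RNU4ATAC, the minor counterpart of U4, was found in 9 and 13 of 21 A375 wells. Among the A375 wells kept it was found in 8 of 15 and 13 of 16, and in Jurkat in 9 and 12 of 18 wells. Its means were 1.405 ± 3.08 and 3.07 ± 4.58 CPM in A375 and 4.31 ± 11.6 and 6.50 ± 9.89 CPM in Jurkat. Single wells carried these means, since the medians were 0 and 1.52 CPM in A375 and 0.363 and 2.68 CPM in Jurkat, and the highest well reached 49.3 CPM. It was tested only with kit #634444, at a log2 fold change of -0.82 (SE 0.73, edgeR adjusted p = 0.423).

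RNU6ATAC, the minor counterpart of U6, was found in 12 and 10 of 21 A375 wells. Among the A375 wells kept it was found in 11 of 15 and 10 of 16, and in Jurkat in 16 and 15 of 18 wells. Its lowest, median and highest values were 0, 0.684 and 6.38 CPM and 0, 0 and 6.08 CPM in A375. In Jurkat they were 0, 2.80 and 16.3 CPM and 0, 4.69 and 34.8 CPM, with 2 and 7 of 18 wells above every A375 well. It had too few counts for the line tests under the filter of at least 5 counts in 25% of wells. With a filter of only 1 count in at least 3 wells, the log2 fold change was -1.18 (SE 1.06, edgeR adjusted p = 0.424) with kit #634413 and -2.52 (SE 0.94, edgeR adjusted p = 0.0234) with kit #634444.

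**Figure D4:**
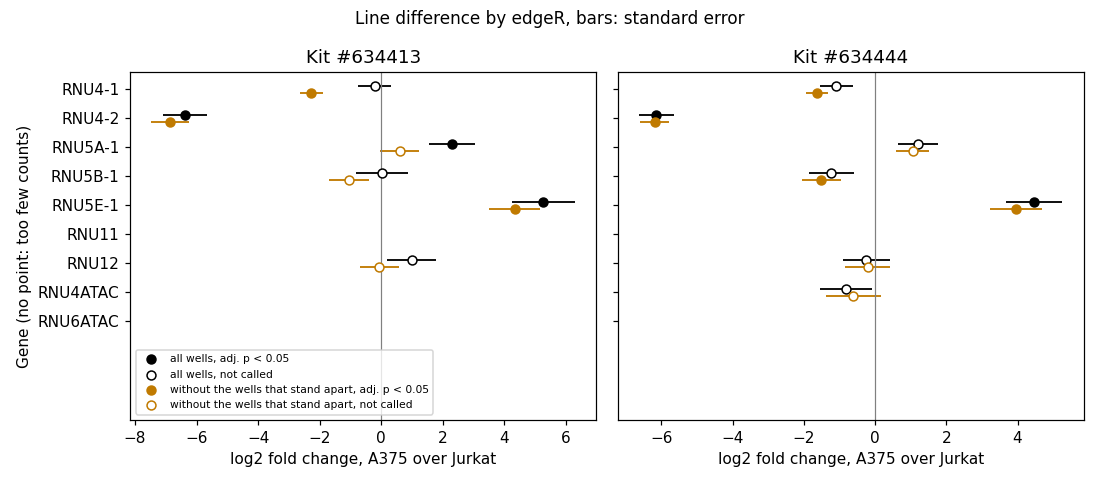
Log2 fold change of A375 over Jurkat (horizontal axis) for the members with enough counts, by kit, with bars for the standard error; filled points passed an adjusted p of 0.05 by edgeR, black points use all wells and orange points leave out the 11 A375 wells that stood apart. RNU4-2 lies near -6 and RNU5E-1 between 3.95 and 5.27 in all 4 fits, while RNU4-1 moves from -0.22 to -2.27 with kit #634413.

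In the line comparisons, 6 of the 9 genes were tested with kit #634413 and 7 with kit #634444. With kit #634413, RNU5A-1 and RNU5E-1 were called higher in A375, where 12.4% of all tested genes were, and RNU4-2 was called lower, where 10.7% were. With kit #634444, RNU5E-1 was called higher, where 14.8% of genes were, and RNU4-2 was called lower, where 17.1% were. In the wells kept, 1 major gene was higher and 2 were lower with kit #634413, where 14.1% of all tested genes were higher and 8.95% lower. With kit #634444, 1 was higher and 3 were lower there, where 20.2% of all tested genes were higher and 13.8% lower. The median log2 fold change of all genes was -0.13 and -0.19 over all wells and 0.09 and 0.11 without the 11 wells. CPM is a share of a well's reads, and less of an snRNA and more of other RNA cannot be told apart.

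The minor spliceosome genes were a small share of the 9 genes in both lines. In wells with at least 20 counts over the 9 genes, RNU11, RNU12, RNU4ATAC and RNU6ATAC together held 17.9% ± 10.7 (SD, n = 19) and 16.2% ± 7.74 (SD, n = 14) of counts in A375, with ranges of 2.79% to 41.6% and 3.09% to 31.7%. In Jurkat they held 7.62% ± 6.75 (SD, n = 18) and 9.48% ± 6.67 (SD, n = 18), with ranges of 0.784% to 23.7% and 2.04% to 23.1%. The ranges overlapped with both kits. Leaving out the wells that stood apart gave 20.5% ± 10.2 (SD, n = 15) and 17.3% ± 7.02 (SD, n = 13) in A375. The order of the lines turned when RNU4-1 and RNU4-2 were left out of the major sum, at 27.9% ± 14.2 and 25.3% ± 12.03 in A375 and 44.7% ± 22.7 and 44.4% ± 17.6 in Jurkat. In the A375 wells kept that share was 30.5% and 26.8%. With the overlapping U11 and U12 targets added, the share was 32.2% and 24.6% in A375, or 34.1% and 25.4% in the wells kept, and 13.4% and 14.6% in Jurkat. In CPM, the minor genes summed to 17.1 ± 17.4 and 14.8 ± 11.6 in A375 (SD, n = 21 each) and to 28.2 ± 31.6 and 32.8 ± 21.7 in Jurkat (SD, n = 18 each), with medians of 14.1 and 12.5 in A375 and 16.8 and 31.4 in Jurkat. The major genes summed to 104 ± 110 and 107 ± 168 CPM in A375 and to 314 ± 70.8 and 325 ± 79.7 CPM in Jurkat. The A375 wells kept had sums of 15.6 ± 8.74 and 17.9 ± 10.2 CPM for the minor genes and of 64.1 ± 35.8 and 91.8 ± 66.1 CPM for the major genes (SD, n = 15 and n = 16).

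**Figure D5:**
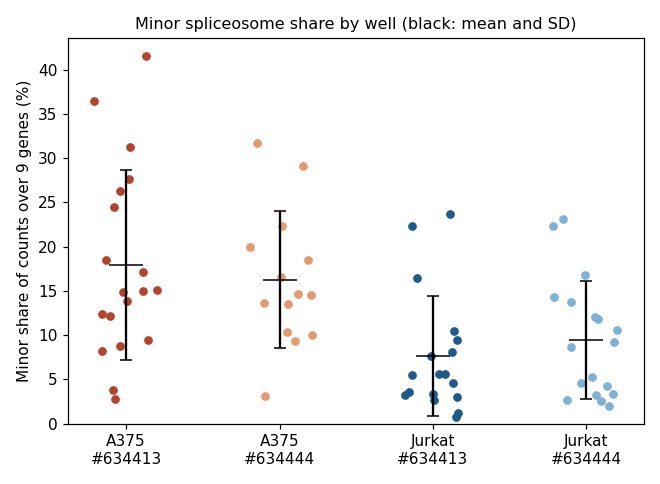
Share of the 4 minor spliceosome genes in the counts over all 9 genes, in percent, for each well with at least 20 such counts, by line and kit; black bars are the mean and SD. The means are 17.9% and 16.2% in A375 and 7.62% and 9.48% in Jurkat, and the wells of the lines overlap with both kits.

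Levels between genes were compared in TPM, the unit that corrects for transcript length. These RNAs are shorter than many sequenced fragments, so the effective length, the part of a target in which a fragment can start, had medians of only 27.6 to 36.5 bases, and the TPM scale rests on that estimate. In Jurkat with kit #634413 the order of mean TPM was RNU4-2 (2812 ± 905), RNU4-1 (2517 ± 505), RNU5B-1 (301 ± 185), RNU5A-1 (191 ± 119), RNU11 (178 ± 428), RNU12 (174 ± 112), RNU4ATAC (83.0 ± 219), RNU6ATAC (70.2 ± 72.5) and RNU5E-1 (12.2 ± 18.6) (SD, n = 18). The U4 genes stood above the others by more than their SD, and among the neighbors from RNU5B-1 to RNU6ATAC no step exceeded the SD of both. The TPM of RNU11 and RNU12 rests on the estimated split with their overlapping targets, so their places in these orders are uncertain. RNU11 had 1 count or more in only 4 of these 18 wells. In A375 with the same kit the order was RNU4-1 (1045 ± 1314), RNU5A-1 (527 ± 569), RNU5E-1 (382 ± 330), RNU12 (212 ± 243), RNU5B-1 (191 ± 156), RNU11 (69.8 ± 143), RNU4-2 (31.7 ± 46.1), RNU4ATAC (29.1 ± 59.6) and RNU6ATAC (25.98 ± 31.4) (SD, n = 21), with no step between neighbors above the SD of both. The order and the levels differed in the 15 wells kept, with RNU4-1 at 551 ± 336 TPM, RNU5E-1 at 335 ± 203, RNU5A-1 at 327 ± 136, RNU12 at 193 ± 110, RNU5B-1 at 162 ± 89.2, RNU11 at 62.8 ± 152, RNU4ATAC at 34.2 ± 66.3, RNU6ATAC at 29.004 ± 25.4 and RNU4-2 last at 21.3 ± 32.8. With kit #634444 the Jurkat order kept the U4 genes on top (RNU4-2 at 3104 ± 716 TPM and RNU4-1 at 2185 ± 609) and RNU5E-1 last (29.4 ± 39.7), and in A375 RNU4-1 was on top at 722 ± 1125 TPM, or 617 ± 371 TPM in the wells kept.

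The kits gave no called difference for any of the 9 genes in either line. In A375, 5 members were tested and their log2 fold changes of kit #634444 over kit #634413 ran from -1.06 (RNU12) to 0.37 (RNU5E-1), where 0.0744% of all tested genes were called. They ran from -0.098 (RNU5B-1) to 0.97 (RNU5A-1), with RNU12 (0.0014), RNU4-1 (0.46) and RNU5A-1 turned in sign and none called, in the wells kept. In Jurkat, 8 members were tested, from -0.78 (RNU11, SE 1.16) to 1.35 (RNU6ATAC, SE 0.76, p = 0.0825 before and edgeR adjusted p = 0.9999 after adjustment), where 0.0376% of all tested genes were called. The Jurkat wells gave the more precise values, with 0.15 (SE 0.23) for RNU4-2 and -0.20 (SE 0.24) for RNU4-1. Whether the line difference changed with the kit was tested for 6 members, and none was called, where 1.53% of all tested genes were called. Those differences ran from -1.18 (RNU12, SE 0.92) to 0.34 (RNU4-2, SE 0.63), and the unadjusted p of all 6 was at least 0.202. Over all wells, none of these members had an unadjusted p under 0.05 by edgeR. RNU4-1 in A375 had -1.24 in wells with at least 25% of the median total (edgeR p = 0.0304 before adjustment, not called). Over all wells DESeq2 gave it -1.16 (DESeq2 p = 0.0237 before adjustment). DESeq2 called none in A375 or for the change with the kit, and gave no adjusted p for the members in Jurkat. U11 over both targets had a log2 fold change of -1.67 (SE 0.59) between the kits in A375, with p = 0.0051 before and edgeR adjusted p = 0.807 after adjustment.

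Wells carry index numbers, and consecutive runs of 8 numbers were compared because cells were handled in strips. Over the 3 runs in each group, the mean of RNU4-2 was 136 to 169 and 140 to 207 CPM in Jurkat and 0.709 to 2.69 and 0.458 to 4.30 CPM in A375. The mean of RNU5E-1 was 9.26 to 21.4 and 5.95 to 56.6 CPM in A375 and 0.127 to 1.397 and 0.881 to 1.80 CPM in Jurkat. Each run held wells of a single line and a single kit, so no difference between the lines could be read within a run. Every A375 run mean of RNU4-2 lay below every Jurkat run mean, and every A375 run mean of RNU5E-1 lay above. The labels do not say that a run was a batch.

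Over the 36 Jurkat wells, with ranks centered within kit, the level of RNU4-1 followed that of RNU4-2 with a Spearman correlation of 0.59, the largest among the 36 pairs of members. Next were RNU11 with RNU12 at 0.49 and RNU4-2 with RNU5A-1 at 0.45, and the lowest was RNU5B-1 with RNU4ATAC at -0.29. All values share the depth of the well, and genes with few counts hold many ties. RNU11 had 1 count or more in only 4 and 6 of 18 Jurkat wells. Its other values are 0 or fractions of a count left by the estimated split, so its rank order is uncertain. Of 10589 genes with enough counts, those most like the sum of the major genes were an unnamed transcript (0.61), RNU2-2P (0.59), a U2 gene, and DYNC2I1 (0.59). Those most like the sum of the minor genes were KCTD20 (0.59), GPR89B (0.59) and an unnamed transcript (0.59). These are descriptions over 36 wells of 2 kits. The genes named are the 3 highest of 10589 for each sum. How high the top values would be among unrelated genes was not tested.

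Other snRNA genes give the setting. U1, which recognizes the start of major introns, was counted in 5 listed genes, RNU1-1, RNU1-2, RNU1-3, RNU1-4 and RNVU1-18, that held equal values. Each had means of 298 ± 342 and 174 ± 170 CPM in A375 (SD, n = 21 each) and 383 ± 75.8 and 326 ± 63.5 CPM in Jurkat (SD, n = 18 each). Of the listed snRNA genes outside the 9, 9 and 12 were tested, and RNVU1-7, a variant U1 gene, was higher in A375 with both kits (log2 fold change 4.68, SE 0.94, edgeR adjusted p = 3.6e-05, and 3.50, SE 0.98, edgeR adjusted p = 0.0035). It had 1 count or more in 36 of 78 wells, and since U1 variants are near copies of one another its value is uncertain. RNU5D-1 was called higher with kit #634413 only (3.12, SE 1.02, edgeR adjusted p = 0.0167), and this was lost without the 11 wells (1.27, edgeR adjusted p = 0.316). RNU2-1 and RNU2-2P, the U2 genes, were not called with either kit. RNU6-1, RNU6-2 and RNU6-9 of U6 held equal values, were tested only with kit #634444 and were not called, and RNVU1-1 and RNU5F-1 had too few counts for the test. Without the 11 wells the 5 U1 genes, which carry the same reads, were called lower in A375 with kit #634413, at -0.78 (SE 0.22, edgeR adjusted p = 0.0068).

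Messenger RNAs of proteins that bind or build the snRNPs were listed by role. Of 15 Sm and LSm genes tested, 0 were higher and 4 were lower in A375 with kit #634413, and 0 were higher and 10 lower with kit #634444, with list medians of -1.10 and -1.52 on the log2 scale. Of all tested genes 10.7% and 17.1% were lower and 12.4% and 14.8% higher, and their medians were -0.13 and -0.19. SNRPB, a core protein of the Sm ring, was at 92.1 ± 86.2 and 103 ± 80.7 CPM in A375 and at 346 ± 180 and 325 ± 111 CPM in Jurkat, with log2 fold changes of -1.76 (SE 0.48, edgeR adjusted p = 0.0029) and -1.52 (SE 0.40, edgeR adjusted p = 0.0016). SNRPD3 (-2.02 and -1.89) and SNRPD1 (-1.49 and -1.28) of the same ring were called with both kits, and SNRPF was called with kit #634444 only (-2.22, edgeR adjusted p = 9.03e-06, against -1.24 with kit #634413, edgeR adjusted p = 0.0543). Without the 11 wells the list had 0 higher and 3 lower with kit #634413, where 8.95% of all genes were lower, and 1 higher and 10 lower with kit #634444, where 13.8% were lower. The list medians were then -0.75 and -1.16, against 0.09 and 0.11 for all genes.

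Of 17 protein genes of the U4/U6.U5 tri-snRNP, 0 were higher and 5 were lower in A375 with each kit, with list medians of -0.80 and -0.90, where 10.7% and 17.1% of all tested genes were lower. DDX23, a helicase of U5, was at 68.6 ± 48.8 and 53.1 ± 31.8 CPM in A375 and at 260 ± 154 and 186 ± 68.5 CPM in Jurkat (log2 fold changes -1.74, SE 0.46, edgeR adjusted p = 0.0021, and -1.62, SE 0.37, edgeR adjusted p = 0.0003). TXNL4A, another U5 protein, was called with both kits, at -1.99 and -1.57. PRPF8, the large U5 scaffold, was not called over all wells (-0.84 and -0.92), and SNRNP200, the helicase that unwinds U4 from U6, was called with kit #634413 only (-1.18, edgeR adjusted p = 0.0455). PRPF6, which bridges U5 and U4/U6, had log2 fold changes of -0.41 and -0.30, neither of them called. Without the 11 wells 3 and 5 genes were lower and 0 were higher, where 8.95% and 13.8% of all genes were lower, SNRNP200 was called with both kits (-0.86 and -0.52), and PRPF8 was called with kit #634444 (-0.53, edgeR adjusted p = 0.0108).

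For the proteins particular to the minor spliceosome, 0 of 10 tested genes passed edgeR's adjusted threshold with kit #634413, where 2 had an unadjusted p under 0.05 and DESeq2 called 0, and with kit #634444 0 were higher and 3 of 13 were lower, where 17.1% of all tested genes were, with list medians of -0.33 and -0.29. Among the most abundant, ZCRB1 (-0.07 and -0.67) and PDCD7 (0.41 and 0.09) were not called, and SNRNP48 was called with kit #634444 only (-1.48, SE 0.55, edgeR adjusted p = 0.0303). In the wells kept, 0 of 10 and 2 of 13 were lower, where 8.95% and 13.8% of all genes were. Of the genes for snRNA transcription and 3′ end formation, 0 of 24 were called by edgeR or DESeq2 with kit #634413, where 1 had an unadjusted edgeR p under 0.05, and 1 was higher and 1 lower of 25 with kit #634444, where 14.8% of all tested genes were higher and 17.1% lower, with list medians of -0.18 and -0.25. In the wells kept, 1 of 24 and 3 of 25 were higher and 0 were lower, where 14.1% and 20.2% of all genes were higher. INTS1 (0.53 and 0.18) and INTS3 (1.36 and 0.74), subunits of the Integrator complex that cuts the snRNA 3′ end, were not called over all wells, nor was ICE1 (-0.01 and -0.45), and without the 11 wells INTS3 was called higher with both kits (1.53 and 1.07, edgeR adjusted p = 0.0371 and 0.0030). Of the snRNP assembly genes, 1 was higher and 0 lower of 23 with kit #634413, and 0 were higher and 4 lower of 24 with kit #634444, with list medians of -0.11 and -0.52. Of all tested genes 12.4% were higher with kit #634413 and 17.1% lower with kit #634444. In the wells kept, 2 were higher and 0 lower of 23, and 2 were higher and 3 lower of 24, with list medians of 0.23 and -0.18, where 14.1% and 20.2% of all genes were higher and 8.95% and 13.8% lower. XPO1 (-0.69 and -0.53), the exporter of snRNAs, CLNS1A (0.77 and 0.15) and STRAP (0.16 and -0.07) were not called. No gene of these protein lists was called between the kits in either line, or for a change of the line difference with the kit.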

How the data were processed

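Single wells of A375 and Jurkat were sequenced as 75-base read pairs. Per the paper's methods, the authors trimmed 3 bases from read 2 and quantified stranded pairs with kallisto 0.43.1 on Ensembl release 91 extended with ERCC spike-ins, and STAR 2.5.3 was used for quality control. The deposited values are estimated counts, TPM and effective length for each target, which kallisto shares out among targets by a likelihood, so near copies and overlapping targets can exchange reads.

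Estimated counts were summed to genes and rounded. CPM used all counts but spike-ins, and an rDNA repeat unit listed as a target in the deposited tables held 11.9% of counts. A gene entered a fit when 25% or more of its wells held 5 or more counts, and was tested with edgeR 4.0.16 (TMM, quasi-likelihood test, R 4.3.3), with Benjamini-Hochberg adjustment over all genes and a threshold of 0.05. Each kit's line comparison and each line's kit comparison used its own 2 groups, and the kit by line term used all 4. DESeq2 1.42.0 with poscounts size factors was an alternative. A p-value weighs a difference against the spread between single wells, and not against that between cultures of a line. Sums and shares have no test. Count intervals and floors cover counting error only. Sequences and coordinates came from GENCODE release 44 on GRCh38, and transcript lengths equaled the deposited ones for all 9 genes. The sequences of the U5 genes are not reported here. The steps were tested on simulated data.

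The members and gene lists were chosen with earlier results of these data known. All members are named, and from each protein list the 3 genes with the highest mean CPM and up to 2 genes in each direction with the smallest adjusted p in both line comparisons. The 11 wells that stood apart were defined after seeing the data, by a total under 25% of the median or a TMM factor over 1.5 times from the median. Pools of 8 libraries are not named in the labels and were not used.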

Additional observations from a re-analysis of the deposited data

How the results depend on the processing

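No paired analysis was possible because the replicate numbers were given in accession order and pair no wells. RNU4-2 and RNU5E-1 kept their direction and call with both kits under all 8 alternatives. RNU5A-1 with kit #634413 was no longer called with library size alone (1.44), in wells with at least 25% of the median total (1.78) or without the 11 wells, and it was called with kit #634444 by DESeq2 (1.07) and with library size alone (1.15). RNU4-1 was called lower with library size alone (-1.25 with each kit), and with kit #634444 also in wells with at least 25% of the median total (-1.62). The value of RNU5B-1 with kit #634413 turned to -0.41 (DESeq2), -0.73 (library size alone), -0.23 (1 count in 3 wells), -0.034 (wells with at least 25% of the median total), -0.052 (1 fit of 4 groups) and -1.06 (without the 11 wells), none of them called, and DESeq2 called it with kit #634444 (-1.50). Without the 11 wells RNU12 turned to -0.061 with kit #634413, the A375 kit difference turned to 0.0014 (RNU12), 0.46 (RNU4-1) and 0.97 (RNU5A-1), and the change of the line difference with the kit turned to 0.68 (RNU4-1) and 0.49 (RNU5A-1). With library size alone, RNU4-1 turned to 0.037 in the latter and RNU5A-1 to 0.26 in the A375 kit difference. The cause was not tested. Called genes numbered 2580, 3912, 9 (5 higher, 4 lower), 4 (4 higher, 0 lower) and 178 for the line difference with kit #634413 and kit #634444, the kit difference in A375 and Jurkat, and the kit by line term. With a filter of 1 count in at least 3 wells they numbered 7603, 9147, 1939, 1450 and 3138. The A375 kit count was 1 in wells with at least 25% of the median total, 25 in 1 fit of 4 groups, 7 higher and 0 lower by DESeq2, and 13 higher and 0 lower with library size alone. The Jurkat kit count was 19 by DESeq2 (5 higher, 14 lower) and 287 in 1 fit of 4 groups, and the kit by line count was 30 by DESeq2. The mean minor share rose to 32.2% and 24.6% in A375 with the overlapping U11 and U12 targets added, and was 25.3% in A375 with kit #634444 and 44.7% and 44.4% in Jurkat without the U4 genes. Of 36 pairs of gene and group, 28 had 1 count or more in at least 50% of wells, and 18 had 5 counts or more. RNU11 and RNU6ATAC had too few assigned counts for both line tests, and RNU4ATAC for that with kit #634413.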
